A study of Mus musculus with 2 samples.

Results

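Accessible chromatin was examined at 10 genes of the TGF-beta pathway in mouse hematopoietic stem cells. The genes were taken from a fixed list of the pathway's ligand, receptors, Smads and corepressors, out of 21887 protein-coding genes of the annotation. For each, every accessible region that overlapped the gene body or the 50 kb on either side was taken, which gave 85 of 32005 control regions and 32 of 13156 H1C regions. Regions within 1 kb of either end of a gene are called gene-end regions below.

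The cells were CD48-CD150+LSK stem cells sorted from bone marrow of wild-type C57BL/6J mice. Control cells had been transduced with the empty retrovirus pMSCV and H1C cells with MSCV-H1C, which carries H1C, a linker histone that closes the nucleosome by binding its entering and leaving DNA. Both groups therefore shared the wild-type genotype and retroviral transduction, and the age of the mice, the time after transduction and the share of cells that carried the virus are not given in the sources used here. Each group held 1 ATAC-seq library of about 1000 cells, so differences could not be checked in replicates and control and H1C were compared without a test or p-value. The series concerns DEK and replication stress in Fanconi anemia, and the comparison addresses what H1C added to stem cells does to accessibility.

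TGF-beta ligands are secreted in a latent form and, once released, bring type II and type I receptors together on the cell surface. The type I receptor phosphorylates Smad2 and Smad3, which join Smad4, enter the nucleus and bind short Smad boxes in DNA, while Smad7, Ski and Skil hold the signal back. The pathway is known for keeping hematopoietic stem cells quiescent and for restraining their growth in Fanconi anemia.

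Promoter sequences show where the gene-end regions lay. RefSeq (GRCm38.p6, the build of the regions) gave entries for 5 members, Tgfb1, Tgfbr1, Tgfbr2, Smad3 and Ski, and the 250 bases before 5 gene starts are printed 5′ to 3′ on the strand of the gene. Capitals mark GC boxes (GGGCGG or its reverse complement) and the short Smad box (CAGAC or its reverse complement). The first start, at chr7:25686752-25687001 on the plus strand, had a region in control only. The next 3, at chr4:47352972-47353221 (plus), chr9:116175364-116175613 (minus) and chr9:63757995-63758244 (minus), kept theirs, and the last, an inner start of Tgfbr1 at chr4:47385966-47386215 (plus), had a region in neither list.
Tgfb1: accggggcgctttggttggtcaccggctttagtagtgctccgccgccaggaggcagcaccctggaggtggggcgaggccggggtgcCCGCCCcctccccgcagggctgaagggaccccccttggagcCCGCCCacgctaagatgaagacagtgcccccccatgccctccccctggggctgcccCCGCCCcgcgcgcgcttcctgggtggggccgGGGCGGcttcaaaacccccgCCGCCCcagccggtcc
Tgfbr1: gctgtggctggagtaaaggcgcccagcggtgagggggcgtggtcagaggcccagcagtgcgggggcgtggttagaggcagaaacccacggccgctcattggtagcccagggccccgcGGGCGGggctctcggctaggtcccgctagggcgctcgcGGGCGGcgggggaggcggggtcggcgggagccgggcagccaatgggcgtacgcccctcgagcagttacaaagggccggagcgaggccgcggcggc
Tgfbr2: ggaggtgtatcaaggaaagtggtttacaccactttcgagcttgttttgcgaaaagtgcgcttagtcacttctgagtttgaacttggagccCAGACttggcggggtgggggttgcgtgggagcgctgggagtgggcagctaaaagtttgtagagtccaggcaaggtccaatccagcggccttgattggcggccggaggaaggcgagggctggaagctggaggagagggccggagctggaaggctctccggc
Smad3: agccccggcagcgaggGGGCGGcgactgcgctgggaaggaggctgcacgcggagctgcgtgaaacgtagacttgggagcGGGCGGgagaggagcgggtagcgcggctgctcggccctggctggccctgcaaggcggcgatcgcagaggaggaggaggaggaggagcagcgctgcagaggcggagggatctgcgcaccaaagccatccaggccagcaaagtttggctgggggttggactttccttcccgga
Tgfbr1, inner start: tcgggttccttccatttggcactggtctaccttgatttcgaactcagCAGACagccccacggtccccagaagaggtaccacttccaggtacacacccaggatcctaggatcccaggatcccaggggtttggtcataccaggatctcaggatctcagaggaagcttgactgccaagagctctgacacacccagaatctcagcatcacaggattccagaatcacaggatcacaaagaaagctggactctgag

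The Tgfb1 stretch was 75.2% G or C and held 5 GC boxes. The outer Tgfbr1 stretch had 74.8% and 2 GC boxes, Smad3 had 69.2% and 2, and Tgfbr2 had 58.4% and none. Ski, whose stretch is not printed, had 87.6% and also 5 GC boxes. Its gene-end region was kept but did not overlap the stretch. The inner Tgfbr1 start, without a region, had 52.8%, close to the median of 52.4% over 32851 promoter entries. A GC box was present in 32.7% of all promoters and the short Smad box in 42.2%. The short Smad box occurred once each at Tgfbr2 and at the inner Tgfbr1 start, and the full palindrome GTCTAGAC, present in 0.167% of all promoters, in none of the 6 member entries. CCAAT (33.8% of all promoters, either strand) occurred 2 times at the outer Tgfbr1 start and 2 times at Tgfbr2. Letters CCGGAAG (ETS), TGTGGT (RUNX) and TGACGTCA (CRE) and the NRF1 motif were in none of these windows, against 6.91%, 14.0%, 1.55% and 0.782% of all promoters. These matches describe letters only. Both strands were searched, and none of these motifs contains another.

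All 10 members had a gene-end region in control, and 7 of the 10 also had one in H1C. Over all protein-coding genes 46.9% had a control gene-end region, and 71.0% of those with one also had one in H1C, so the members' share kept was near the background. The 3 without one in H1C were the ligand Tgfb1, the co-receptor Tgfbr3 and the inhibitory Smad7. Both signalling receptors, the 3 signal-carrying Smads and both corepressors kept theirs. Each member's gene-end regions lay at a single end of the gene.

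The values behind these calls are the summit pileup, the number of fragments or reads stacked at the highest point of a region, and the fold, the authors' ratio of that pileup (plus 1) to the background around it in the same library (plus 1). Pileups in H1C are compared as a log2 ratio to control after dividing by 1.10, the ratio of the genome backgrounds, with an exact binomial 95% interval for counting error. The lists give no read totals, so depth is known only through these backgrounds, 3.99 per position in control and 4.40 in H1C.

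**Figure D1:**
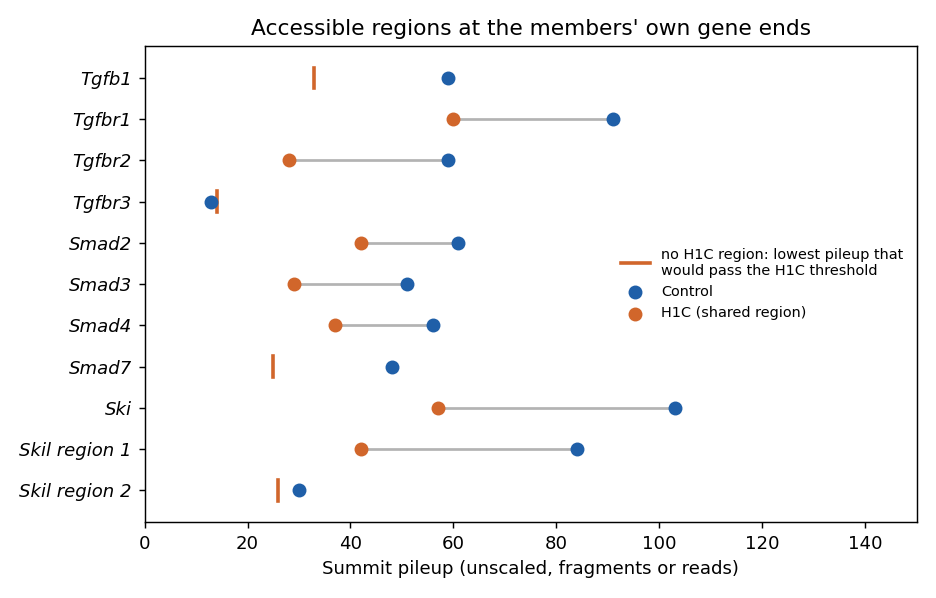
Summit pileup (x axis, unscaled) at the gene-end regions of the 10 members in control (blue) and H1C (orange), 1 library each. Orange bars mark, where H1C had no region, the lowest pileup that would reach the H1C threshold at the scaled control background. Each of the 7 shared regions had a lower pileup in H1C.

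The ligand gene Tgfb1 encodes TGF-beta 1, the pathway's main ligand in blood. Its start had a control region at chr7:25686750-25687088 with a pileup of 59, a fold of 3.87 and a −log10 q of 15.2, and no H1C region overlapped it. The region covered all 250 printed bases, with its summit 93 bp before the start, and lay within 1 kb of an end of B9d2 as well. Its local background, 14.5 per position, was high, so a pileup of 33 would have been needed in H1C to pass at the same scaled background, a limit of -0.98 on the log2 ratio. The median over all strong shared regions (control pileup of at least 60, without high-copy regions) was -0.92, close to this limit. Among control gene-end regions of like pileup (within 10) and like background (within 25%), 80 of 117 were also called in H1C (68.4%, 95% interval 59.1 to 76.7).

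The Tgfb1 window was the densest of the 10, with 11.01 control regions per 100 kb. It held 13 control and 7 H1C regions, and all 7 were shared. A region 2092 bp inside the gene, chr7:25689094-25689651, was called in both lists with pileups of 66 and 34 (log2 ratio -1.10, 95% interval -1.74 to -0.48). Of 5 control regions at the ends of neighbouring genes 4 were kept, with the strongest, at Hnrnpul1 and Axl, at 79 and 43. The kept region at Ccdc97 had 57 in control and 21 in H1C (log2 ratio -1.58, -2.38 to -0.84). A control region 3046 bp before the gene, with a pileup of 62 and a fold of 3.91, was the only one of 12 member regions with a control pileup of at least 60 that H1C lacked.

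Of the receptor genes, Tgfbr1 and Tgfbr2 kept their start regions and Tgfbr3 had its gene-end region in control only. Tgfbr1 encodes the type I receptor kinase. Its region, chr4:47352840-47353703 in control, had pileups of 91 in control and 60 in H1C and folds of 10.0 and 8.16 (log2 ratio -0.74, -1.24 to -0.26). The other 5 control regions of its window, all outside the gene with pileups of 19 to 35, were called in control only. Tgfbr2 encodes the type II receptor that binds the ligand. Its start region, chr9:116174892-116175441, had pileups of 59 and 28 and folds of 6.41 and 3.68 (log2 ratio -1.22, -1.92 to -0.55), the lowest ratio at a member's own end. Its interval overlapped that of Tgfbr1, and the difference between the receptors' ratios was not tested. The summit lay 77 bp inside the gene in control and 101 bp inside in H1C, past the printed stretch.

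Inside Tgfbr2, 4 control regions were called and none was kept. The strongest, chr9:116144999-116145681, lay 29682 bp from the nearest end of the gene with a pileup of 48, a fold of 7.88 and a −log10 q of 26.3. At its low background of 5.22 a pileup of 16 would have passed in H1C, a limit of -1.73 on the log2 ratio and the lowest among the 59 control-only member regions. Away from gene ends, 714 of 1154 control regions of like pileup and background were also called in H1C (61.9%, 95% interval 59.0 to 64.7), so a missing call was not rare. An H1C-only region, chr9:116136970-116137174, lay 7825 bp away with a pileup of 20. Exons and introns are not given in the annotation used, so regions in a gene body were not divided further.

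Tgfbr3 encodes betaglycan, a co-receptor that presents ligand to the type II receptor. Its gene-end region, at the higher-coordinate end (chr5:107289086-107289337), was the weakest of the members, with a pileup of 13, a fold of 2.81 and a −log10 q of 1.78 in control. A pileup of 14 would have been needed in H1C, so a loss was not measurable there. All 4 regions inside the gene, with pileups of 15 to 27, were in control only. The single shared region of its window, 8556 bp outside the gene, had a pileup of 20 in both lists (log2 ratio -0.14, -1.11 to 0.83).

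The signal-carrying Smads kept their gene-end regions with log2 ratios whose intervals overlapped, and differences between them were not tested. Smad2 had a control region of 1104 bp at its lower-coordinate end (chr18:76241111-76242214) with a pileup of 61, which H1C covered with 2 narrower regions, the higher at a pileup of 42 (log2 ratio -0.68, -1.28 to -0.09). Smad4, the shared partner of Smad2 and Smad3, had pileups of 56 and 37 at its higher-coordinate end (log2 ratio -0.74, -1.38 to -0.12). Smad3 had 51 and 29 at its start, chr9:63757896-63758394 (log2 ratio -0.96, -1.67 to -0.27), with the summit 233 bp before the start in control and 183 bp in H1C. Smad2 and Smad4 had few other regions, with 3 and 4 further control regions at pileups of 18 to 21 and 12 to 26, and H1C had none of them.

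Smad3 differed from Smad2 and Smad4 in the number of regions inside the gene. The body of Smad3 held 10 control regions away from its end, against 1 in Smad2 and 2 in Smad4, and 2 of the 10 were kept. The stronger of these, chr9:63706388-63706727, had pileups of 56 and 34 (log2 ratio -0.86, -1.52 to -0.22). The other, chr9:63737445-63737873, had 45 and 23 (log2 ratio -1.11, -1.90 to -0.35). The 8 that were not kept had control pileups of 24 to 41. H1C had 1 region of its own in Smad3, with a pileup of 23, which lay 1089 bp from a control region. The strongest control region elsewhere in the window, at the ends of Iqch and Aagab, had pileups of 74 and 50.

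Smad7 encodes the inhibitory Smad that is switched on by the signal and blocks the type I receptor. Its lower-coordinate end had a broad control region, chr18:75366646-75367750, with a pileup of 48, a fold of 4.50 and a −log10 q of 15.04, and no H1C region. A pileup of 25 would have passed in H1C, a limit of -1.08 on the log2 ratio. Among like gene-end regions, 470 of 715 were called in H1C (65.7%, 95% interval 62.1 to 69.2). The 4 control regions inside the gene, at pileups of 20 to 35, were likewise in control only. Kept regions lay outside, 24182 bp from one end (pileups of 44 and 26; log2 ratio -0.90, -1.66 to -0.17) and 23489 bp from the other (44 and 24; -1.02, -1.80 to -0.27). Smad7 was also the member with the most H1C-only regions, 2, at pileups of 23 and 17.

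Both corepressor genes kept strong gene-end regions. Ski, whose protein binds Smads and recruits histone deacetylases, had the highest pileup of the members, 103 in control and 57 in H1C, with folds of 9.04 and 6.20 (chr4:155223015-155223699; log2 ratio -0.996, -1.49 to -0.52). This region began 480 bp before the gene and did not overlap the 250 bases before its start, which were 87.6% G or C. Of 7 control regions inside Ski, 2 were kept, the higher with pileups of 60 and 35. Another, chr4:155217316-155217716, was called in control only at a pileup of 51 and a fold of 5.84, with a limit of -1.42. Skil encodes the related SnoN. Its main region, chr3:31094458-31095348, had pileups of 84 and 42 (log2 ratio -1.14, -1.71 to -0.59). H1C covered it with 2 regions, the second of which ended 4 bp short of a further control region with a pileup of 30 that therefore counted as control only. Outside Skil, 3 of 5 regions were kept, and the strongest of them, 33332 bp away, had pileups of 69 and 28 (log2 ratio -1.44, -2.13 to -0.79).

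**Figure D2:**
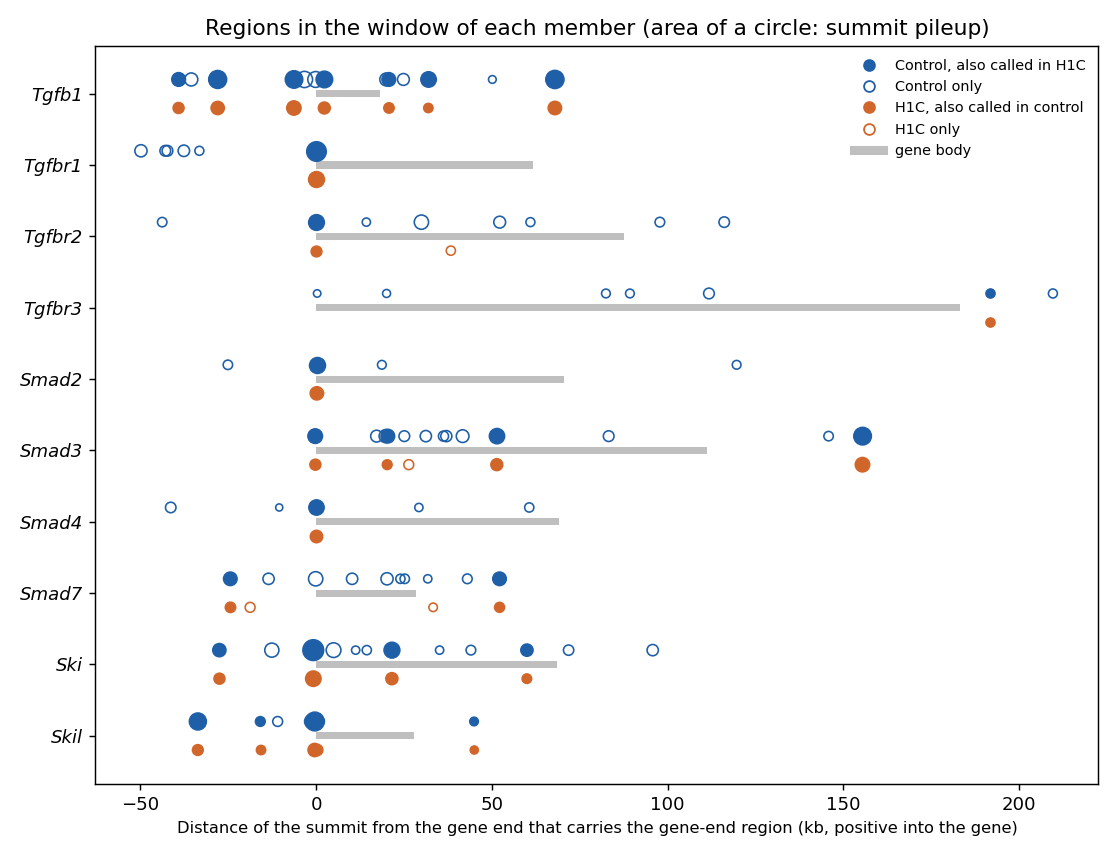
Summits of accessible regions in the window of each member, by distance in kb from the gene end with the gene-end region, with control above and H1C below the gene body (grey). Filled circles were called in both lists, open circles in one, and the area of a circle is in proportion to the summit pileup. In Tgfbr2 the start is kept and the 4 control regions inside the gene are open, and Smad3 shows 10 control regions inside the gene.

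Across the 10 windows H1C had fewer regions than control at every member, as the whole lists did, with 37.6 H1C regions per 100 control regions in the windows and 41.1 in the whole lists. Control regions numbered 4 (Smad2) to 13 (Tgfb1 and Smad3) and H1C regions 1 (Tgfbr1, Tgfbr3 and Smad4) to 7 (Tgfb1). Of the 85 control regions 26 were kept (30.6%, 95% interval 21.0 to 41.5), against 35.8% within 50 kb of any protein-coding gene. With the control list cut to the length of the H1C list by −log10 p, 23 of 40 were kept (57.5%), against 68.0%. Neither comparison was matched for gene ends, which made up 20.0% of control regions in member windows. In the windows of all genes they made up 35.6% (both in the uncut lists). Kept shares were 7 of 13 for the ligand, 3 of 21 for the receptors, 8 of 32 for the Smads and 8 of 19 for the corepressors. These groups differed in how many of their regions lay at gene ends and no test was made between them. Of the 32 H1C regions 28 were also called in control (87.5%, 71.0 to 96.5; 87.3% over all genes), and 4, in Tgfbr2, Smad3 and Smad7, were in H1C only, against 12.7% of H1C regions over all genes. Their −log10 q values were 2.78 to 6.46.

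Gene-end regions were kept more often than others, as over all genes. At the members' own ends 7 of 11 control regions were kept (63.6%, 30.8 to 89.1), against 62.9% over all gene ends. Away from any gene end 14 of 68 were kept (20.6%, 11.7 to 32.1), against 20.8%. That share was 42.3% with lists of equal length (11 of 26), against 48.4%. At a fold of at least 5 in both lists it was 1 of 16 (6.25%), too few to read as a rate. The share over all genes at that fold is not given. Inside member genes 5 of 33 were kept (15.2%, 5.11 to 31.9) and outside them 9 of 35 (25.7%, 12.5 to 43.3), with overlapping intervals. No share over all genes is given for these places. Gene-end regions were 20.0% of the control regions in member windows (12.1 to 30.1), against 35.6% of those in the windows of all genes.

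Kept regions had been stronger in control. Their median pileup was 56.5, against 26 for the 59 control-only regions. Among the 21 weakest, at pileups up to 20, 2 were kept, near Tgfbr3 and Skil. When each control region was given the kept share of all regions in the same step of pileup and the same place, gene end or elsewhere, 31.0 of the 85 would have been kept, 13.6 of 17 at gene ends and 17.4 of 68 elsewhere. The numbers observed, 26, 12 and 14, were slightly lower, and no test of the difference was made.

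**Figure D3:**
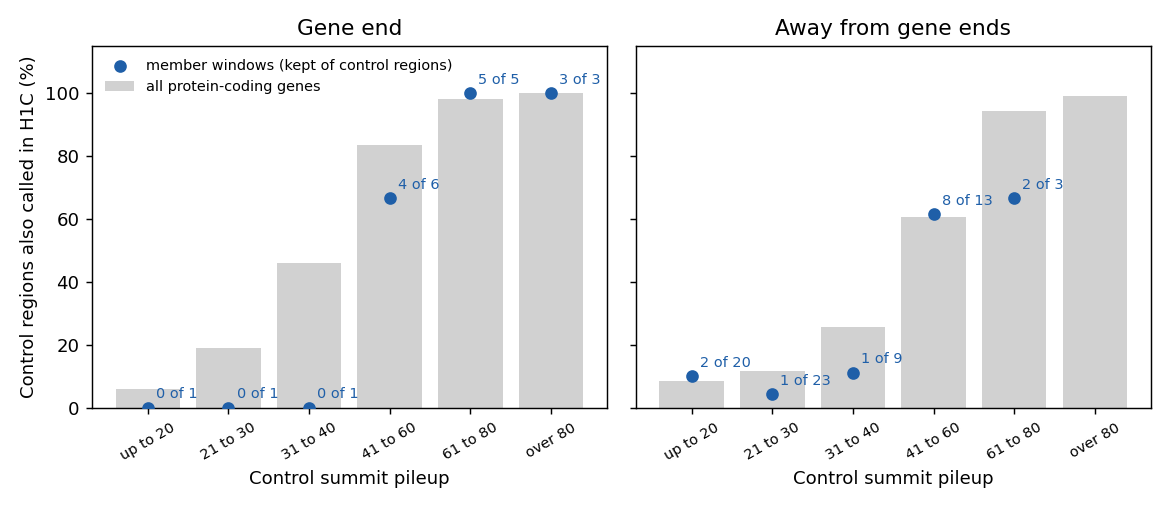
Share of control regions also called in H1C (y axis, percent) by control summit pileup (x axis), at gene ends and elsewhere, for windows of all protein-coding genes (bars) and of the 10 members (points with counts). The bars rise with pileup, and the members' points, with few regions in most steps, are 4 of 6 at gene ends above 40 and up to 60, 8 of 8 above that, and 2 of 20 and 1 of 23 in the lowest 2 steps elsewhere.

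All 26 shared regions had a log2 ratio below 0, as did 93.7% of all shared regions. The members' median was -0.91 (quartiles -1.02 and -0.72), and the interval lay below 0 at 22 of the 26, against 62.1% of all shared regions. The 4 others were those near Tgfbr3 and Skil with pileups of 18 to 23 and 1 outside Ski. The median was -0.96 at the 7 own ends and -0.88 over 14 regions away from gene ends. Over all such regions of the whole list, without high-copy regions, it was -0.84 and -0.64. These medians were not matched for control pileup. No H1C region had a pileup below 14, so a weak control region could be shared only at a ratio near or above 0. Kept member regions had a median control pileup of 56.5, against 51 for kept regions in the windows of all genes. With a control pileup of at least 60 it was -0.996 over 11 regions, against -0.92 over 3622. Under scaling by the median local background ratio instead, the members' median was -0.59 and the interval lay below 0 at 9 of the 26 (34.6%), against 31.0% of all shared regions. Under either scaling the share of intervals below 0 was not matched for control pileup, on which the width of an interval depends.

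The ratio does not include regions that H1C lacked. A limit could be set for each of the 59 from the pileup that would have passed, assuming the control background scaled by 1.10 and no bound on width. It was at or above the median of strong regions, -0.92, in 42. It was at or below their lower quartile, -1.09, in 7. Besides the named regions in Tgfbr2 and Ski, these were a second region in Tgfbr2 (pileup 33, limit -1.28), one inside Smad7 (35, -1.18), one outside Ski (47, -1.24), one outside Tgfbr1 (35, -1.10) and one inside Tgfbr3 (27, -1.09). Choosing regions by their control call favours a lower value in H1C.

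**Figure D4:**
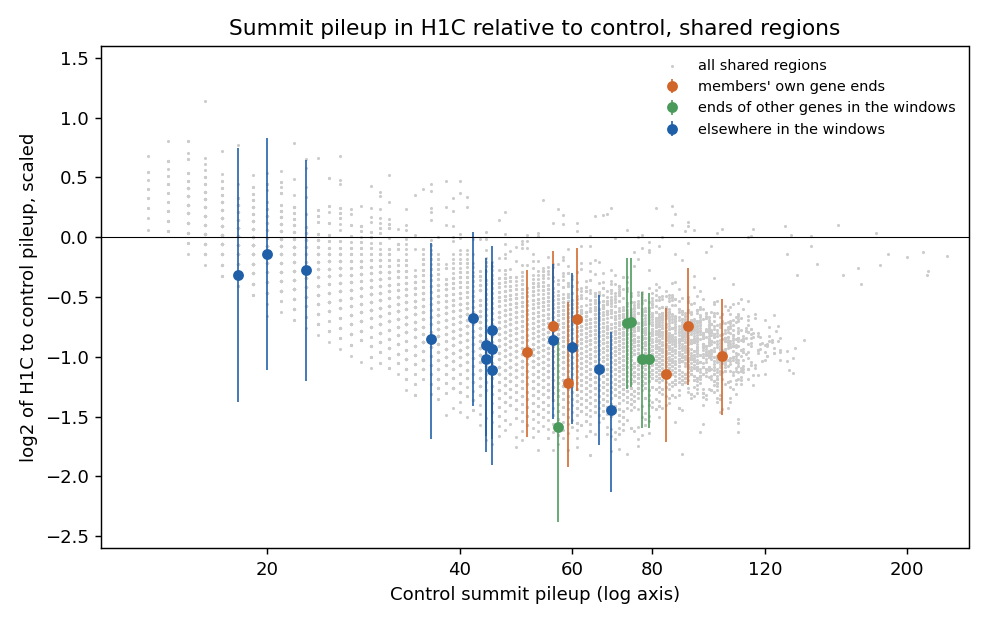
Scaled log2 ratio of H1C to control summit pileup (y axis) against control pileup (log x axis) for the 26 shared member regions, with 95% counting intervals, over all shared regions (grey). All 26 member points lie below 0, and the weakest control regions lie nearest to it. No H1C region had a pileup below 14, so a weak control region that was shared could not have a much lower ratio.

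Shared member regions were mostly narrower in H1C, with summits close to those of control. Their median width of 565 bp in control compared with 330 bp in H1C, and 24 of 26 were narrower in H1C, against 87.2% of all shared regions. The exceptions were the start regions of Tgfbr2 (550 and 585 bp) and Smad3 (499 and 566 bp). Summits moved by a median of 31 bp, which was also the median over all shared regions, and 23 of 26 moved by 100 bp or less. The largest shifts, 130, 171 and 199 bp, were at regions near Tgfbr3, inside Smad3 and near Skil.

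Of 49 other genes of the pathway, 37 had a control gene-end region and 22 of these kept one in H1C (59.5%, 42.1 to 75.2), against 71.0% over all genes. None had one in H1C alone. Regulators of receptors and Smads were kept at 11 of 14. Kept ones included the phosphatase gene Ppm1a (pileups of 62 and 40) and the deubiquitinase gene Usp15 (61 and 28), and control-only ones included Pmepa1 (48) and Tgif1 (45), both brakes on the signal. Other receptors were kept at 3 of 8, with the decoy receptor Bambi (81 and 51) and Acvrl1 (61 and 41) kept and the BMP receptor Bmpr2 (36) and activin receptor Acvr2a (31) in control only. Genes of ligands and their release were kept at 2 of 6. Lrrc32 (47 and 28) and the protease gene Furin (39 and 31) were kept, and Thbs1 (22) was in control only, as were Ltbp2 (19) and the ligand genes Tgfb2 (15) and Tgfb3 (19). Of the other Smads, the inhibitory Smad6 (52 and 28) and the BMP-responsive Smad1 (33 and 28) were kept and Smad5 (33) was not.

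Target genes were kept at 4 of 6. The growth-arrest genes split, with Cdkn1b kept (60 and 34; log2 ratio -0.96, -1.61 to -0.33) and Cdkn2b (33) and Cdkn1c (21) in control only. The Id genes, whose proteins block helix-loop-helix factors, were all kept, Id2 at 78 and 46, Id3 at 59 and 38 and Id1 at 27 and 26. Over the 22 kept genes the median log2 ratio was -0.79, and it was below 0 at all but Tgif2 (20 and 26).

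Markers were looked up at gene ends and do not settle the labelled cell type. Over all protein-coding genes 46.9% had a control gene-end region. The lymphoid Cd79a had a higher control pileup than every stem cell marker, and the non-hematopoietic Cdh1 and Epcam had control regions too. Of 7 stem cell markers, Kit, Ly6a, Slamf1, Hlf and Meis1 had a control gene-end region, at pileups of 18 to 28, none had one in H1C, and Procr and Mecom had none in either list. At gene ends over all genes, control regions this weak were seldom called in H1C, at 6.13% for pileups up to 20 and 18.97% above 20 and up to 30. Of 11 markers of other cells, Cd79a had one in both lists (63 and 27), Cd3e, Lyz2, Cdh1 and Epcam in control only at pileups of 14 to 24, and the erythroid Gata1 and Klf1 in neither. Their part in the results above was not tested.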

How the data were processed

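ATAC-seq, a transposase assay of open DNA, was compared between 1 control and 1 H1C library, grouped by treatment label. The submitters' processing notes name Trim Galore 0.4.4, Bowtie2 2.2.9, Picard, featureCounts, MACS2 and build mm10. Roles and settings, removal of duplicates and shifting of reads to the cut site, which would alter pileups and summits, are not given in the sources used here. The authors deposited 1 list of regions per library, so regions were called per sample. The deposited fold is a ratio to local background, −log10 p and −log10 q are those of the authors' caller, and the deposited score was not used.

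Whole pileups and local backgrounds were solved from fold and Poisson −log10 p (relative tolerance 0.0001) for 32005 of 32005 control and 13155 of 13156 H1C regions, with a solver tested on simulated data. The lowest local background of a list was its genome background. Regions were shared when at least 1 bp overlapped, and the highest of several H1C regions was used. High-copy regions had at least 5 times the genome background. The annotation was RefSeq GRCm38.p6, which all 77 listed genes matched. Intervals are exact (Clopper-Pearson for shares) and cover counting error only, since amplified fragments are not independent molecules.

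The members and lists were chosen with earlier results of these data known. By rule, each member was named with its gene-end regions, its strongest other control region and its H1C-only regions, and of the other pathway genes the 2 with the highest control pileup per state and role. Chosen after the values were seen were the other regions given, the limits on missing regions, the like regions, the numbers by pileup step, the count of intervals under local scaling, and the naming of Tgfb2, Id1, Id3 and Tgif2. Software was Python 3.11.15 with scipy 1.17.1, pandas 2.3.3, numpy 2.4.6 and matplotlib 3.10.9.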

Additional observations from a re-analysis of the deposited data

How the results depend on the processing

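No paired analysis was possible because neither group had a further library. In all, 74 alternatives were run on 11 results. The value stayed within its interval, its quartiles or 1.5 times in 58 and moved in 16; 4, without the Tgfb1 window, were added after the data had been seen. A change of sign, possible only for the log2 ratio, was seen in 0. Control and H1C regions numbered 43 and 15 with no flank, 53 and 20 with flanks of 10 kb, and 28 and 6 at a fold of at least 5. At that fold 7 members had a gene-end region in control, 4 in H1C and 4 in both lists. Of the H1C regions 6 of 6 were also in control (100%). Control regions kept away from gene ends were 1 of 16 (6.25%), and other pathway genes kept were 9 of 22 (40.9%). With 50% reciprocal overlap 59.4% of H1C regions were also in control. With lists of equal length the kept shares were 57.5% of control regions, 42.3% away from gene ends and 80% of other pathway genes (20 of 25). No share over all genes is given at a fold of at least 5, with 50% reciprocal overlap or with gene ends of 2500 bp. For other pathway genes none is given at equal length either. The 71.0% over all genes holds for the uncut lists only. Scaled by local background at shared summits, the median log2 ratio was -0.59. The smaller counts follow from narrower windows or fewer regions; for the other changes the cause was not tested. With gene ends of 2500 bp, 8 members had a region in both lists, since Tgfb1 then counted its inner region. Pileups of about 14 limit what H1C could show.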
